A study of Mus musculus with 2 samples.

Results

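Myeloid cells of mouse colorectal polyps included 1464 cells that carried transcripts of at least 1 of *Fscn1*, *Ccl22* and *Ccr7*, genes that mark mature dendritic cells (DCs). They were taken from single-cell RNA-seq of polyps from wild-type (WT) mice and from *Clec7a*-/- mice, which lack Dectin-1, a C-type lectin receptor for fungal and other beta-glucans. The series asks what Dectin-1 does in the myeloid cells that infiltrate intestinal tumors. The 1464 cells, called the selected cells here, were 520 of 3147 kept WT barcodes (16.5%, 95% interval 15.2 to 17.9) and 944 of 2702 from the *Clec7a*-/- library (34.9%, 33.1 to 36.8).

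Both groups were C57BL6/J mice given the carcinogen azoxymethane (AOM) and then 3 cycles of 1% dextran sulfate sodium (DSS), and the labels give their age as 26 weeks. Polyps were taken 16 weeks after AOM, and myeloid cells labelled CD11b+ & CD11c+ were sorted from them. One library pools 5 WT mice and the other pools 4 *Clec7a*-/- mice, and the deletion is in every cell of the mouse, so it is not confined to DCs. With 1 library for each genotype, library and genotype cannot be told apart and no test was run. Every interval is an exact 95% interval for counting error, and leaves out the spread between mice and between library preparations. Intervals of levels and of their ratios treat each transcript counted as independent, so they also leave out the spread between cells.

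A dendritic cell takes up antigen in a tissue and, once it matures, stops taking up, carries CCR7 to follow chemokines along lymphatic vessels to the draining lymph node, and presents the antigen to T cells there. Maturation brings fascin, an actin-bundling protein that shapes the long processes of the cell, together with costimulatory molecules, IL-12 p40 and the chemokine CCL22, which attracts T cells that carry CCR4. The program is driven largely through NF-kappaB, and in tumors it also includes molecules that restrain T cells.

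The cells were chosen by measured values. A barcode in which 200 to 4000 genes were detected and no more than 10% of the UMIs (unique molecular identifiers, each standing for 1 captured transcript) were mitochondrial was selected when *Fscn1*, *Ccl22* and *Ccr7* together reached 5 UMIs per 10000 UMIs of the barcode, called the score. The macrophage genes *C1qa*, *C1qb* and *C1qc* had to stay under 20 on the same scale, the neutrophil genes *S100a8* and *S100a9* under 80, and *Cd3d* and *Cd3e* at 0. The lowest score inside was 5.03 (WT) and 5.02 (*Clec7a*-/-), and the highest just outside was 4.75 and 4.96. In the WT library 619 kept barcodes reached the score, of which the C1q limit removed 48, the S100 limit 42 and the *Cd3d* and *Cd3e* limit 14. In the *Clec7a*-/- library 1044 reached it, and the same limits removed 27, 48 and 26, some barcodes failing more than 1. Because of this choice the levels of these genes, and every difference between selected and other cells, are a description and support nothing.

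The WT library held 15869215 UMIs in 3467 deposited barcodes and the *Clec7a*-/- library 11808230 in 3080. Selected cells held 2476889 UMIs in the WT library, with a median of 3938 UMIs and 1582.5 genes per cell, and 4150355 in the *Clec7a*-/- library, with medians of 3792.5 UMIs and 1516 genes. Their median share of mitochondrial UMIs was 3.96% and 4.47%. There were 17 barcodes that occurred in both libraries, of which 4 were selected in the WT library, 7 in the *Clec7a*-/- library and 2 in both. Without these 17 barcodes the log2 ratio of the shares was 1.08, as it was with them.

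The selected cells carried genes that mark DCs in general. *Zbtb46*, a transcription factor of the classical DC lineage, stood at 104 UMIs per 1000000 UMIs, written CPM here (91.5 to 117) among WT and 86.3 (77.6 to 95.7) among *Clec7a*-/- selected cells, against 3.34 and 5.28 in all other kept barcodes. *Cst3*, cystatin C, stood at 20562 and 18608 CPM against 2422 and 4078. *Apoe*, abundant in macrophages, was at 55.3 and 65.3 against 2472 and 4065, and *Adgre1*, which encodes the macrophage protein F4/80, at 6.46 and 4.82 against 159 and 195. The other barcodes include those that the C1q limit removed, so the low *Apoe* and *Adgre1* follow in part from the rule. The rule could also be met through *Ccr7* alone, and *Fscn1* had a UMI in 28.5% and 34.2% of the selected cells.

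Of the 3 genes, *Ccr7* carried most of the selection. It had a UMI in 509 of 520 WT and 920 of 944 *Clec7a*-/- selected cells, and was the only one of the 3 in 166 (31.9%) and 280 (29.7%). *Ccl22* had a UMI in 333 (64.0%) and 613 (64.9%), and *Fscn1* in 148 (28.5%) and 323 (34.2%). All 3 genes were found together in 123 WT and 266 *Clec7a*-/- cells. A single UMI was enough for 24 and 61 of the cells, while 415 and 759 held 5 or more.

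A larger share of the *Clec7a*-/- library than of the WT library was selected, with a log2 ratio of 1.08 (0.92 to 1.24), at every level of the score. Cells that scored 5 to under 10 numbered 58 WT (1.84% of kept barcodes) and 94 *Clec7a*-/- barcodes (3.48%). From 10 to under 20 there were 75 (2.38%) and 161 (5.96%), and from 20 to under 50 there were 179 (5.69%) and 259 (9.59%). At 50 and over there were 208 (6.61%, 5.77 to 7.53) and 430 (15.9%, 14.6 to 17.3), with 1.27 (1.03 to 1.51) as log2 ratio. The intervals of the 2 libraries did not overlap in any of the 4 bands. Within the selected cells, the band at 50 and over made up 40.0% of WT (35.8 to 44.4) and 45.6% of *Clec7a*-/- cells (42.3 to 48.8), and these intervals overlapped. Shares of sorted cells depend on the other cells beside them, and cells at a C1q score of 20 or over that met the S100, *Cd3d* and *Cd3e* limits, at any *Fscn1*, *Ccl22* and *Ccr7* score (C1q-high cells), numbered 783 and 523.

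**Figure D1:**
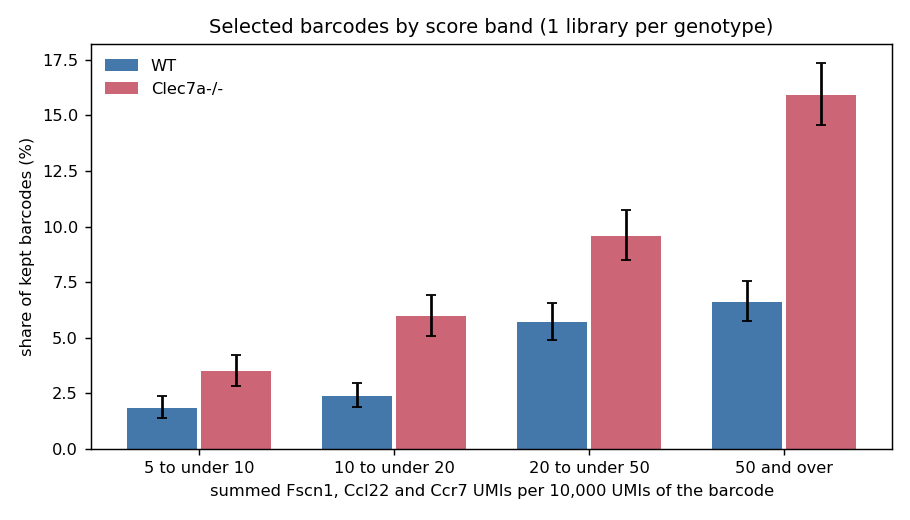
Share of kept barcodes (percent) in 4 bands of the score, the summed *Fscn1*, *Ccl22* and *Ccr7* UMIs per 10000 UMIs, in the WT (blue) and *Clec7a*-/- (red) libraries, with exact 95% binomial intervals for counting error. The *Clec7a*-/- bar is higher in all 4 bands, and at 50 and over the bars stand at 6.61% and 15.9%.

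The selected cells were then followed over the 4 bands of the score. *Fscn1* (chromosome 5, 142960343 to 142973185, GRCm38) was at 8.40 CPM in the WT and 21.2 in the *Clec7a*-/- library from 10 to under 20, 76.9 and 56.2 from 20 to under 50, and 1419 and 1557 at 50 and over. *Ccl22* (chromosome 8, 94745590 to 94751699) went from 95.8 and 97.6 in the lowest band through 123 and 159, and 545 and 551, to 3135 and 4147 in the highest. *Ccr7* (chromosome 11, 99144196 to 99155077) went from 643 and 610 through 1441 and 1261, and 2742 and 2694, to 4708 and 4373. These 3 genes define the bands, so their order is set by construction. *Fscn1* was concentrated at the top of the score, whereas *Ccr7* was spread over all bands. Even at 50 and over an *Fscn1* UMI was found in 57.7% and 64.0% of cells.

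Genes outside the rule followed the score in both libraries. *Cacnb3*, a subunit of voltage-gated calcium channels, was at 24.0 CPM (WT) and 19.0 (*Clec7a*-/-) in the lowest band and 772 and 578 in the highest. *Cd200*, a surface protein that restrains cells bearing its receptor, was at 11.98 and 10.8 in the lowest and 553 and 431 in the highest. *Ccl5*, a chemokine that attracts T cells, was at 7.99 and 5.42 and reached 309 and 439. *Il15ra*, with which IL-15 is presented to lymphocytes, had no UMI below a score of 10 in either library and was at 73.0 and 73.2 at 50 and over. The absence of UMIs below 10 allows a level of up to 11.98 CPM (WT) and 8.13 CPM (*Clec7a*-/-). *Cd40*, which receives help from T cells, was at 120 and 106 in the lowest band and 425 and 464 in the highest, and *Relb*, an NF-kappaB subunit of mature DCs, at 124 and 100 and at 380 and 379. *Cd86*, a costimulatory molecule, stayed between 397 and 559 CPM in all bands of both libraries, while the costimulatory list summed to 1577 and 1474 in the lowest band and 2036 and 1969 in the highest.

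Other genes had lower levels at the top of the score. *H2-Ab1*, a chain of MHC class II, was at 12832 (WT) and 12966 (*Clec7a*-/-) CPM in the lowest band and at 5870 and 6321 in the highest. *Itgax*, which encodes the sorted protein CD11c, was at 467 and 415 and then at 205 and 184. *Csf1r*, the receptor of the macrophage growth factor, was at 571 and 390 in the lowest band and 74.0 and 60.8 in the highest. *Fcer1g*, the signaling chain of Fc receptors, was at 1154 and 740 and then at 219 and 132. The summed MHC class II pathway was at 45169 and 44617 in the lowest band and 25728 and 26458 in the highest, whereas the class I pathway was at 10006 and 8463 in the lowest and, higher, at 13845 and 12988 in the highest. Of 5764 genes with at least 100 UMIs over the selected cells, 299 were at least 2-fold higher on average over the libraries at 50 and over than below 50, and 341 at least 2-fold lower. Among the former, picked after their values were seen, was *Nudt17* at 38.05 and 32.8 CPM against 1.33 and 1.74. Among the latter was *Psat1*, an enzyme of serine synthesis, at 2.06 and 3.23 against 31.9 and 36.6.

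**Figure D2:**
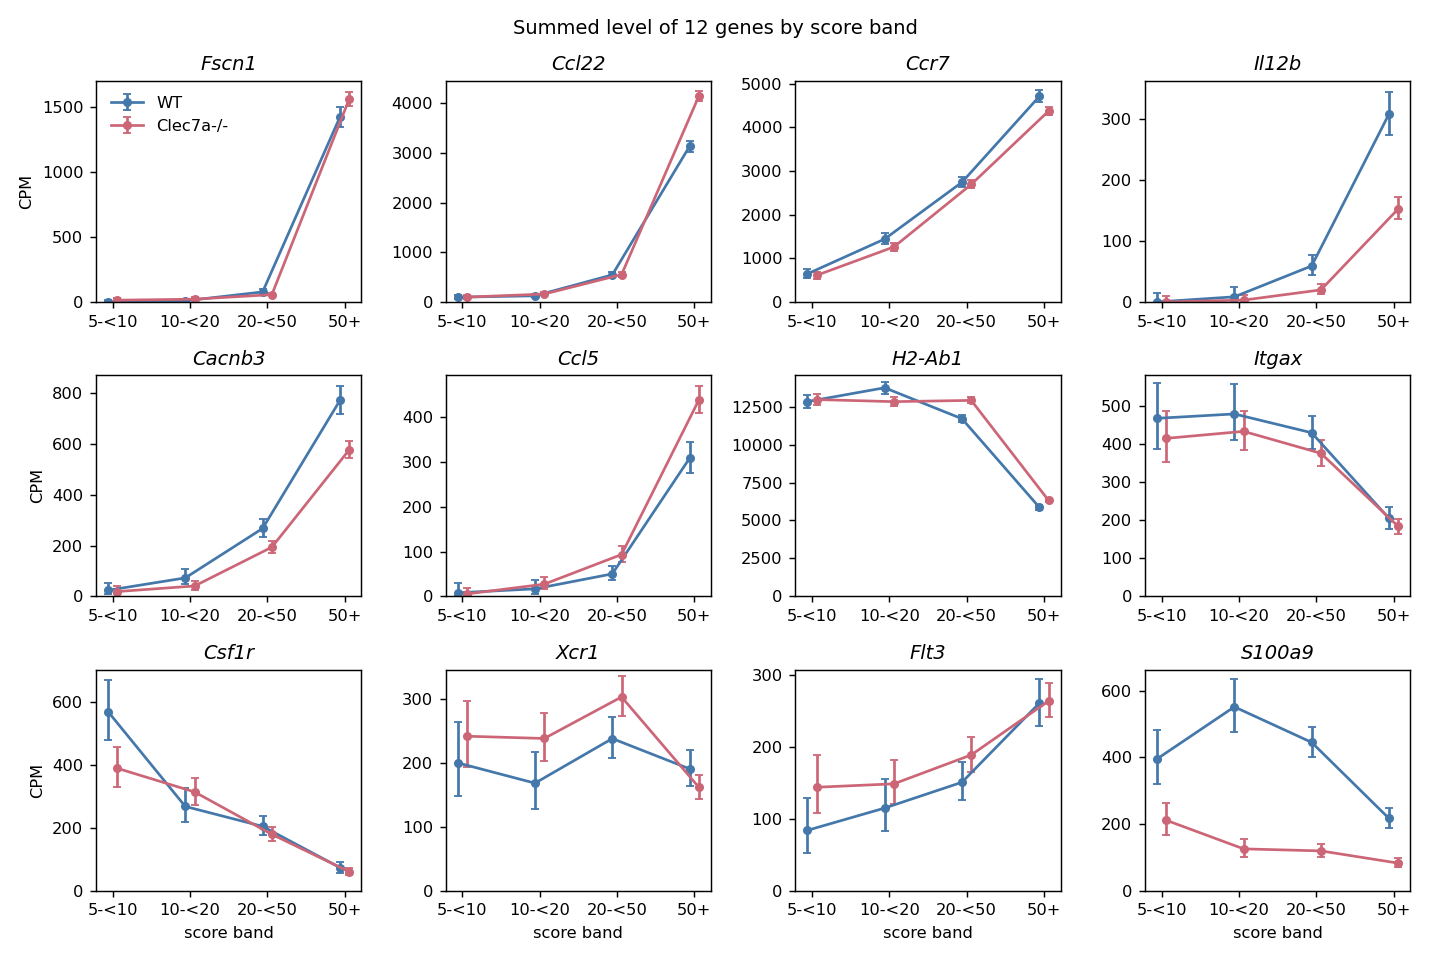
Summed CPM (y axes, each from 0) of 12 genes over the 4 score bands in the WT (blue) and *Clec7a*-/- (red) selected cells, with exact 95% Poisson intervals. *Fscn1*, *Ccl22* and *Ccr7* define the bands, *Il12b*, *Cacnb3* and *Ccl5* are highest at 50 and over, *H2-Ab1*, *Itgax* and *Csf1r* are lowest there, and *Il12b* stands at 309 in the WT and 153 in the *Clec7a*-/- library in that band.

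The 25 genes with the highest ratio of selected over other cells, the rule genes aside, were mostly genes with few UMIs outside the selected cells. *Sod3*, an extracellular superoxide dismutase, was at 27.1 CPM in WT and 50.1 in *Clec7a*-/- selected cells against 0.342 and 0.480 in the others. *Strip2* was at 60.6 and 43.4 against 0.856 and 0.801. *Gypc*, a membrane glycoprotein, was at 52.9 and 52.8 against 0.599 and 2.24. *Adh4*, an alcohol dehydrogenase that can act on retinol, was at 13.7 and 26.3 against 0.428 and 0.320. *Il4i1*, a secreted enzyme that breaks down amino acids and restrains T cells, was at 89.6 and 90.6 against 3.17 and 4.003. *Mab21l3* was at 21.0 and 19.3, with no UMI in the other WT barcodes, which allows 0.257 CPM, and 2.08 in the other *Clec7a*-/- barcodes. *Gm13546*, annotated as an antisense transcript, was at 116 and 156 against 2.31 and 4.32. The remaining genes of the 25 were *Npr1*, *Cacnb3*, *Slco5a1*, *Il12b*, *Havcr1*, *Adgrg6*, *Gm50069*, *Cd200*, *Egf*, *Adcy6*, *Bcl2l14*, *Plppr4*, *Gls2*, *Arhgef40*, *Slc4a8*, *Slc22a23*, *Ndrg4* and *6430562O15Rik*. None of the 25 was 2-fold apart between the libraries within the selected cells.

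Next, the selected cells of the 2 libraries were set against each other. Of 5764 genes with at least 100 UMIs over them, 26 (0.451%) were at least 2-fold higher in the *Clec7a*-/- library and 48 (0.833%) at least 2-fold lower. These counts depended on the selection. They were 12 and 42 without cells holding lymphocyte UMIs, and 25 and 21 with stricter C1q and S100 limits. The median log2 ratio was 0.016, with 90% of the genes between -0.49 and 0.50. In all other kept barcodes the median of the same genes was 0.13. The counts of list members below are read against these shares of 0.451% and 0.833%.

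The maturation list held 34 genes, of which 31 had at least 100 UMIs, and none was 2-fold apart in either direction (median log2 ratio -0.04 against 0.016 over all genes). *Fscn1* was at 586 CPM (556 to 617) in WT and 719 (693 to 745) in *Clec7a*-/- selected cells (log2 ratio 0.29, 0.20 to 0.39). *Ccl22* was at 1456 (1409 to 1504) and 2058 (2014 to 2102), with 0.50 (0.44 to 0.56) as log2 ratio, and *Ccr7* at 3114 (3045 to 3184) and 3032 (2980 to 3086). *Apol7c* was at 1630 and 2195 (log2 0.43, 0.38 to 0.48) and *Socs2*, an inhibitor of cytokine signaling, at 153 and 231 (0.59, 0.42 to 0.77). On the other side, *Cacnb3* was at 413 and 326 (-0.34, -0.46 to -0.22) and *Bcl2l14*, a relative of the Bcl-2 regulators of cell death, at 196 and 110 (-0.83, -1.02 to -0.64). *Bcl2l14* lies on chromosome 6 (134396318 to 134438736), and outside the selected cells its log2 ratio was 1.51 (0.85 to 2.21). *Cd83*, *Relb*, *Tmem123*, *Serpinb6b* and *Il4i1* had ratios within 0.03 of 0 on the log2 scale.

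*Il12b*, which encodes the p40 chain shared by IL-12 and IL-23, had the lowest ratio of the 31 maturation genes. It lies on chromosome 11 (44400063 to 44414033). The WT selected cells held 356 of its UMIs, 144 CPM (129 to 159), and the *Clec7a*-/- selected cells 311, 74.9 CPM (66.8 to 83.7), a log2 ratio of -0.94 (-1.16 to -0.72). The level was lower in the *Clec7a*-/- library and the intervals did not overlap. At a score of 50 and over the ratio was -1.01 (-1.25 to -0.77), and in the band from 20 to under 50 the levels were 59.1 and 19.8. Few cells held the transcripts, 69 of 520 WT (13.3%) and 100 of 944 *Clec7a*-/- (10.6%) selected cells, and the cell with the most UMIs gave 8.71% and 7.72% of them. After each cell was thinned to 1000 UMIs, which left out 43 WT and 69 *Clec7a*-/- selected cells, 7.13% (4.99 to 9.82) and 4.23% (2.99 to 5.78) had a UMI, and these intervals overlapped. In the C1q-high cells, where *Il12b* is not a marker, 0.137% of WT cells had a UMI at that depth, and 0 of 494 *Clec7a*-/- cells, which allows up to 0.607%, at median depths before thinning of 6316 and 5407 UMIs.

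The share of cells with *Fscn1* after thinning was 21.4% (17.8 to 25.3) in WT and 26.1% (23.2 to 29.1) in *Clec7a*-/- selected cells. In C1q-high cells it was 0 of 728, which allows up to 0.412%, and 0.405%. *Ccl22* was found in 41.5% (37.0 to 46.1) and 48.7% (45.3 to 52.1) of selected cells and in 1.37% and 1.21% of C1q-high cells, and *Ccr7* in 89.3% and 87.4% against 4.53% and 4.86%. Without thinning, *Ccl22* in 64.0% and 64.9% and *Ccr7* in 97.9% and 97.5% of selected cells. The intervals of the 2 libraries overlapped for all 3 genes at the thinned depth.

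Of 13 chemokines with at least 100 UMIs, 1 was 2-fold higher and none 2-fold lower in the *Clec7a*-/- selected cells (median log2 ratio 0.12). *Ccl17*, which shares the receptor CCR4 with *Ccl22*, was at 578 CPM in WT and 689 in *Clec7a*-/- cells (log2 0.25, 0.16 to 0.35). *Ccl5* was at 143 (128 to 158) and 230 (215 to 245), a ratio of 0.69 (0.51 to 0.87), whereas in all other barcodes it was at 51.6 and 31.9. *Cxcl10*, an interferon-induced ligand of CXCR3, was the one past 2-fold, at 7.67 (19 UMIs) and 32.0 (133 UMIs), and a single cell gave 21.1% of its UMIs in each library. *Cxcl2*, a neutrophil attractant, was at 1700 and 1086 (-0.65, -0.71 to -0.59) and *Ccl3*, an inflammatory chemokine, at 125 and 64.8 (-0.95, -1.19 to -0.71). Among 7 chemokine and migration receptors, none was 2-fold higher and *Ccr1* was 2-fold lower, at 147 and 68.9 (-1.10, -1.32 to -0.87). *Xcr1*, which binds a chemokine of cytotoxic lymphocytes, was at 205 and 224, and *Cxcr4* at 510 and 640 (0.33, 0.23 to 0.43).

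Of 10 cytokines with at least 100 UMIs, none was 2-fold higher and 2 were 2-fold lower, with a median log2 ratio of -0.43. *Tnf* was at 37.95 CPM in WT (94 UMIs) and 13.7 in *Clec7a*-/- cells (57 UMIs), a ratio of -1.46 (-1.97 to -0.98). *Il1a* was at 61.8 and 21.7 (-1.51, -1.90 to -1.13), and 1 WT cell gave 15.7% of its WT UMIs. *Il1b* was at 1086 and 784 (-0.47, -0.55 to -0.40), *Il1rn*, the natural antagonist of IL-1, at 648 and 498 (-0.38, -0.48 to -0.29), and *Il6* higher, at 77.1 and 108 (0.49, 0.24 to 0.74). *Il1a*, *Il1b* and *Tnf* were also lower in the other *Clec7a*-/- barcodes than in the other WT ones, at 421 and 224, 1676 and 845, and 299 and 145. *Il12b* was not, at 2.05 and 3.68 in the other barcodes, a log2 ratio of 0.84 (-0.05 to 1.73).

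With 1 exception, costimulatory and inhibitory genes with at least 100 UMIs stayed within 2-fold between the libraries. None of 9 costimulatory genes was 2-fold apart (median log2 ratio 0.01). *Cd40* was at 271 CPM in WT and 335 in *Clec7a*-/- cells (0.31, 0.17 to 0.44), *Cd80* at 170 and 122 (-0.48, -0.67 to -0.29), and *Cd86* at 516 and 519. Of 16 checkpoint and inhibitory genes, 1 was 2-fold higher and none 2-fold lower (median -0.03). *Cd274*, which encodes PD-L1, was at 499 and 442 (-0.17, -0.28 to -0.07), *Pdcd1lg2*, PD-L2, at 266 and 259 and *Cd200* at 276 and 240. *Ido1*, which degrades tryptophan, was the gene past 2-fold, with 24 UMIs in 14 WT cells and 107 UMIs in 61 *Clec7a*-/- cells, or 9.69 and 25.8 CPM (1.39, 0.76 to 2.12). Its level in the other barcodes was 0.342 and 1.76.

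**Figure D3:**
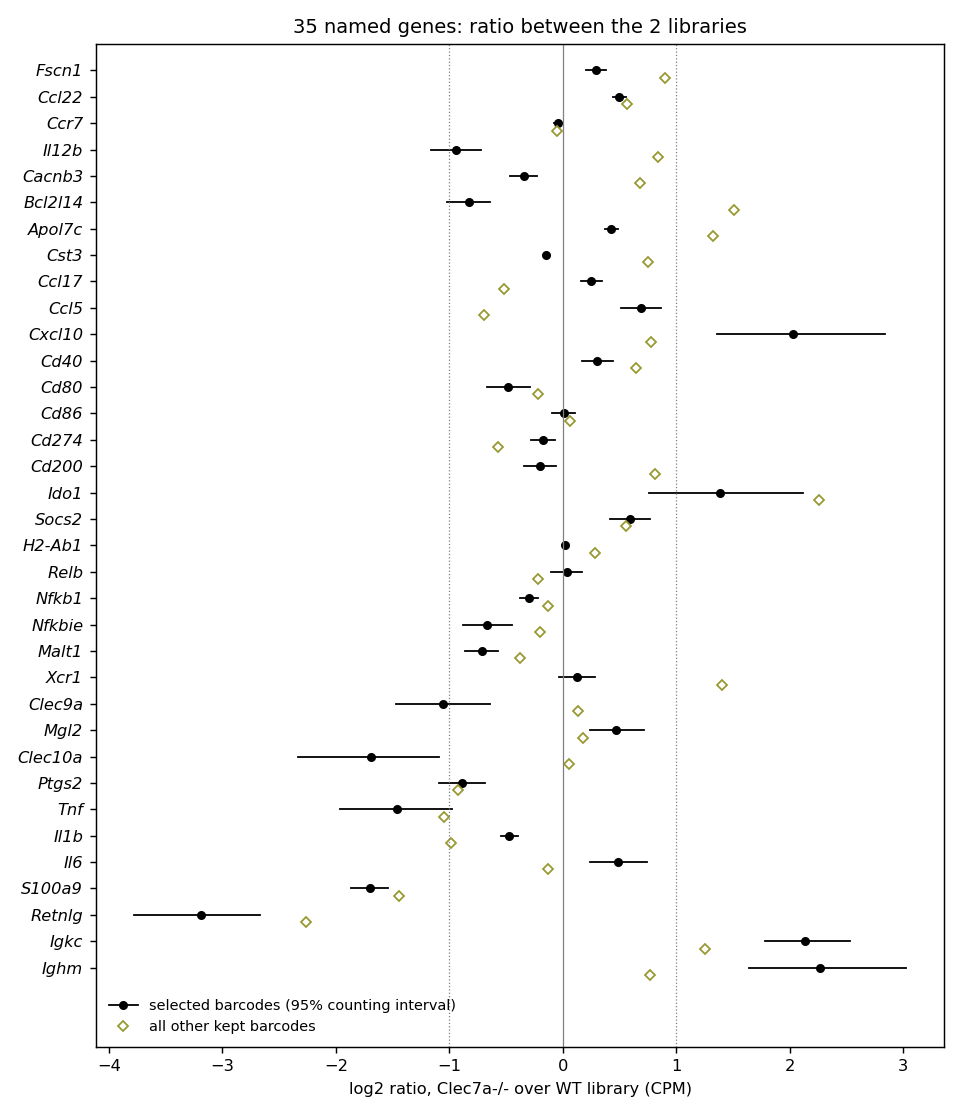
Log2 ratio of CPM, *Clec7a*-/- over WT, for 35 named genes in the selected cells (black, with exact 95% counting intervals) and in all other kept barcodes (open diamonds), with dotted lines at 2-fold. *Il12b* stands at -0.94 in selected cells and 0.84 in the others, *Ccl5* at 0.69 and -0.69, while *Ccr7* and *Cd86* stand near 0 in both.

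None of 12 MHC class II pathway genes and none of 15 class I genes was 2-fold apart (median log2 ratios -0.02 and -0.06). *H2-Ab1* was at 9821 CPM in WT and 9953 in *Clec7a*-/- cells, *H2-Aa* at 13001 and 12186, and *Cd74*, the invariant chain that guides class II, at 3194 and 3520. *Ciita*, the activator of class II genes, was at 19.0 and 23.1.

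None of 21 NF-kappaB genes was 2-fold apart (median log2 ratio -0.14). *Nfkb1* was at 924 CPM in WT and 753 in *Clec7a*-/- cells (-0.29, -0.37 to -0.22). *Nfkbia*, an inhibitor that NF-kappaB itself induces, was at 858 and 707 (-0.28, -0.36 to -0.20), *Nfkbie*, another inhibitor, at 139 and 87.9 (-0.66, -0.88 to -0.45), and *Tnfaip3*, which ends the signal, at 393 and 302 (-0.38, -0.50 to -0.26). *Rel* was at 576 and 497 (-0.21, -0.31 to -0.11), *Nfkb2* at 233 and 201 (-0.21, -0.37 to -0.06) and *Relb* at 281 and 287. *Map3k14*, the kinase of the alternative pathway, was at 224 and 245, and *Traf3*, which restrains it, at 168 and 199 (0.24, 0.07 to 0.42).

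The kappaB consensus, the sequence that NF-kappaB binds, was searched on both strands in 300 bases around the start of genes (250 before and 50 after, RefSeq, GRCm38.p6). It was found in none of 21 matched promoters among the 28 rule and leading genes, against 5.14% of 27025 genes with a promoter and 6.76% of 4661 genes tested above. Among the NF-kappaB list, whose promoters were searched after the values were seen, 10 of 18 matched genes held it. Overlapping matches on either strand are merged. The stretches of 3 of these genes are shown because they are the pathway's own subunits and inhibitor, with the match to the consensus in capitals. A match describes the letters and was not tested as a site.
Nfkb2, chr19:46304683-46304736, plus strand: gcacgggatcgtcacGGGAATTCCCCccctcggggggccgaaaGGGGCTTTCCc
Rel, chr11:23771036-23771076, minus strand: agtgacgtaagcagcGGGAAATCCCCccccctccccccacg
Nfkbia, chr12:55492652-55492691, minus strand: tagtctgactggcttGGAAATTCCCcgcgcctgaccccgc

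Markers of both type 1 and type 2 DCs were found among the selected cells. Cells with a UMI of the type 1 markers *Xcr1*, *Clec9a*, *Cadm1*, *Itgae* or *Naaa* and none of the type 2 markers *Cd209a*, *Sirpa*, *Clec10a*, *Mgl2* or *Clec4a4* made up 135 of 520 WT (26.0%, 22.2 to 29.96) and 324 of 944 *Clec7a*-/- selected cells (34.3%, 31.3 to 37.4). Type 1 DCs are known for presenting antigen to CD8+ T cells, and type 2 DCs for presenting to CD4+ T cells. Cells with type 2 markers only were 119 (22.9%) and 217 (22.99%), cells with both 70 (13.5%, 10.6 to 16.7) and 59 (6.25%, 4.79 to 7.99), and cells with neither 196 (37.7%) and 344 (36.4%). The share with type 1 markers only was thus higher in the *Clec7a*-/- library while the share with both was lower. No difference in type 1 DCs is read from the former. Cells with at least 2 UMIs of *Xcr1* or *Clec9a* were 18.1% (14.9 to 21.7) and 20.2% (17.7 to 22.9), and these intervals overlapped. Cells with neither had the lowest median depth, 2321.5 and 2275.5 UMIs, against 5997 and 5051 for type 1 markers only. Depth and the detection of a marker thus moved together, and how many of these cells lack the markers was not tested. Some of these markers were common outside DCs. *Sirpa* was found in 21.9% (WT) and 20.4% (*Clec7a*-/-) of selected cells but in 68.3% and 61.95% of C1q-high cells, *Mgl2* in 14.0% and 10.8% against 44.8% and 47.0%, whereas *Xcr1* was found in 24.4% and 26.7% against 1.53% and 1.34%. The type 1 markers differed in this. *Cadm1* was found in 14.4% and 13.6% against 37.2% and 32.3%, and *Naaa* in 11.7% and 11.9% against 17.5% and 18.4%. *Clec9a* and *Itgae* were, like *Xcr1*, rarer in C1q-high than in selected cells. At 1000 UMIs a cell, *Sirpa* was found in 8.595% and 7.54% against 23.1% and 23.1%, *Mgl2* in 6.71% and 6.06% against 19.2% and 21.9% and *Xcr1* in 11.1% and 13.1% against 0.137% and 0.202%. *Cadm1* was found in 3.98% and 4.69% against 10.03% and 9.51% at that depth. *Naaa* was found in 1.47% against 3.57% in WT, but was not more frequent in C1q-high cells of the *Clec7a*-/- library. *Irf8* was at 360 and 375 CPM with type 1 markers only, 327 and 307 with type 2 markers only, 206 and 423 with both, and 374 and 529 with neither.

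*Il12b* differed between these strata, by library. In cells with type 1 markers only it was at 276 CPM in WT and 79.2 in *Clec7a*-/- cells, with type 2 markers only at 71.5 and 15.1, with both at 68.8 and 42.3, and with neither at 73.1 and 138. By these levels *Il12b* was lower in the *Clec7a*-/- library with type 1 markers only and with type 2 markers only, and higher in cells with neither. No counting intervals are given for the strata, so these directions only describe the levels. Cells with both numbered 70 and 59, so no difference is read from that stratum. *Fscn1* was at 569 and 343 with type 1 markers only and 697 and 696 with type 2 markers only. It was at 199 and 77.6 with both, and 856 and 1732 with neither. *Ccl22* was, in the same order, at 1789 and 1726, at 1586 and 2066, at 1081 and 1547, and at 1162 and 2900. Cells with neither held 42.9% (WT) and 58.7% (*Clec7a*-/-) at a score of 50 and over, and their median score was 42.3 and 63.8.

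Within all selected cells, 9 type 1 markers and 9 type 2 markers with at least 100 UMIs had none 2-fold higher and 1 each 2-fold lower (median log2 ratios 0.12 and 0.16). *Clec9a*, a receptor for dead cells, was at 46.0 CPM (37.97 to 55.3) in WT and 22.2 (17.9 to 27.2) in *Clec7a*-/- cells (-1.05, -1.47 to -0.65). *Clec10a*, a lectin that binds galactose-type sugars, was at 27.5 (21.3 to 34.8) and 8.43 (5.87 to 11.7), a ratio of -1.69 (-2.33 to -1.09), and 1 cell gave 11.8% and 11.4% of its UMIs. In the other barcodes these genes were at 4.11 and 4.48 and at 7.88 and 8.17. *Irf4*, a factor of type 2 DCs, was at 15.3 and 28.2 (0.87, 0.34 to 1.45), *Irf8*, a factor of type 1 DCs, at 325 and 401 (0.30, 0.18 to 0.43), and *Mgl2* at 85.6 and 119 (0.47, 0.24 to 0.71). None of 19 DC transcription factors was 2-fold apart (median -0.09).

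Genes of IL-22 binding protein (IL-22BP), retinoic acid and prostaglandin E2, pathways that the study examined, stayed within 2-fold over all selected cells. *Il22ra2*, the gene of IL-22BP, a soluble decoy that keeps IL-22 from epithelial cells, had 67 UMIs in WT and 159 in *Clec7a*-/- selected cells. These were 27.1 and 38.3 CPM (0.50, 0.08 to 0.94). They came from 11 of 520 WT (2.12%) and 21 of 944 *Clec7a*-/- cells (2.22%), a log2 ratio of shares of 0.04 (-1.04 to 1.27). *Il22ra2* lay in the middle of the score, at 61.3 and 85.5 from 20 to under 50 and at 5.14 and 6.46 at 50 and over. By marker stratum it was at 9.66 (WT) and 91.8 (*Clec7a*-/-) with type 2 markers only and 10.4 and 45.4 with neither. It was at 16.0 and 7.65 with type 1 markers only and 82.6 and 37.6 with both. Few cells held the gene and the strata have no counting intervals, so no direction is read from them. *Aldh1a2*, which makes retinoic acid, was at 51.3 and 57.6 and was highest at 50 and over, at 87.4 and 101.2. *Adh4* was at 13.7 and 26.3 (0.92, 0.37 to 1.54), in 20 and 78 cells, and was past 2-fold at a score of 50 and over, at 13.4 and 44.1 (1.68, 0.87 to 2.69). *Ptgs2*, which encodes the prostaglandin synthase COX-2, was at 168 and 90.8 (-0.89, -1.09 to -0.69), at 193 and 73.7 (-1.39, -1.72 to -1.07) at a score of 50 and over, and at 349 and 183 in the other barcodes. *Ptger4*, a receptor of prostaglandin E2 that promotes DC migration, was at 315 and 304 (-0.05, -0.18 to 0.08). The limit of 2-fold over all selected cells held for all 5 IL-22BP and retinoid genes and all 3 prostaglandin genes with at least 100 UMIs.

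The genes furthest apart between the libraries were mostly not DC maturation genes. *Hebp1*, a heme-binding protein gene, had 5 UMIs in the WT and 449 in the *Clec7a*-/- selected cells, 2.02 and 108 CPM (5.61, 4.51 to 7.37), and a ratio of 1.99 in the other barcodes. *Apold1* had 3 and 124 UMIs (4.41, 3.04 to 6.92), *Klra17*, a receptor of the Ly49 family whose near-identical members can share reads, 29 and 386 (2.97, 2.44 to 3.59), and *Stk38l*, a kinase, 77 and 400 (1.62, 1.28 to 2.004). These 4 genes lie on chromosome 6, from 129831154 to 146778812. *Igkc* lies on the same chromosome outside that stretch (70726435 to 70726966). In all, chromosome 6, the one that carries *Clec7a*, held 8 of the 26 higher genes (30.8%) and 5 of the 48 lower ones, against 4.82% of the genes tested. *Klrb1b*, a lectin-like receptor also on chromosome 6 (128813706 to 128826331), had 143 UMIs in the WT and 28 in the *Clec7a*-/- cells (-3.08, -3.74 to -2.51).

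On chromosome 15, *Dpys*, an enzyme of pyrimidine breakdown (39768487 to 39857470), had 15 UMIs in WT and 183 in *Clec7a*-/- selected cells (2.82, 2.104 to 3.73). *Ankrd33b* (31291478 to 31367726) had 169 and 22 (-3.66, -4.40 to -3.04), and *Ext1*, which builds heparan sulfate (53064038 to 53346159), 242 and 41 (-3.29, -3.82 to -2.82). *Ankrd33b* stood at -3.07 in the other barcodes as well. *Ext1* stood at -0.80 there (-1.02 to -0.59), so its ratio was further from 0 in the selected cells. *Gm21860*, on the Y chromosome, had 8 and 100 UMIs (2.82, 1.87 to 4.15), and its ratio in the other barcodes was 2.09 (1.73 to 2.47). *Ddx3y* and *Eif2s3y*, also on the Y chromosome, did not share that gap. *Ddx3y* was at 105 CPM in WT and 92.3 in *Clec7a*-/- selected cells (-0.18, -0.41 to 0.05), and *Eif2s3y* at 40.4 and 32.8 (-0.30, -0.68 to 0.09). *Xist*, on the X chromosome, had no UMI in the selected cells of either library. *Birc5* and *Pclaf*, genes of dividing cells, were 2-fold higher in the *Clec7a*-/- cells, at 6.46 and 20.7 and at 14.1 and 30.1 CPM. *Mki67*, also of dividing cells, was at 100.5 and 91.1, and the other 7 of 10 proliferation genes with at least 100 UMIs were within 2-fold too. *Hmox1*, heme oxygenase, chosen after its value was seen, was at 3828 and 1871 CPM (-1.03, -1.08 to -0.99) and at 16413 and 8963 in the other barcodes.

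**Figure D4:**
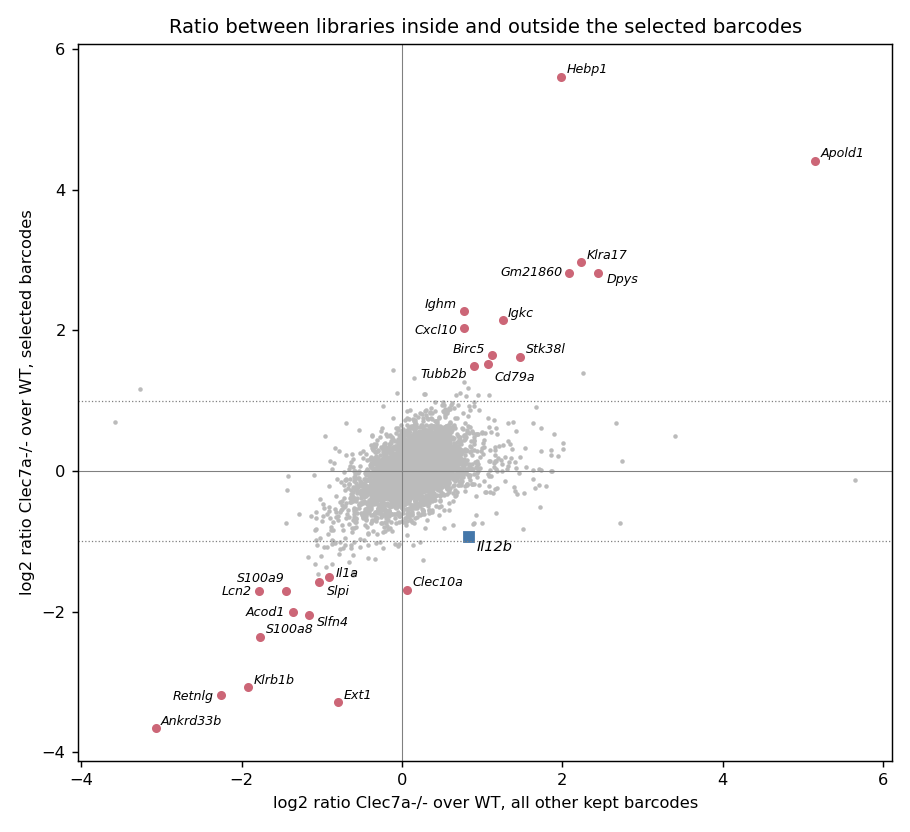
Log2 ratio of *Clec7a*-/- over WT for each of 5764 genes (grey points) in all other kept barcodes (x axis) and in the selected cells (y axis), with dotted lines at 2-fold and the 12 highest and 12 lowest genes in red. *Hebp1* and *Apold1* stand highest and *Ankrd33b* lowest on the y axis, and *Il12b* (blue) is among the genes on opposite sides of 0.

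Ratios in the selected cells were set beside ratios in all other barcodes of the same libraries. Of the 26 higher genes, 11 were at least 2-fold higher in the others too and 23 had the same sign there. Of the 48 lower genes, 14 were at least 2-fold lower in the others and 44 had the same sign. In addition, 40 of the 48 lower genes and 14 of the 26 higher genes had less in selected than in other cells, against 38.7% of all genes tested. These counts describe the libraries, since both ratios use the same 2 libraries. For the counts of same sign and of 2-fold in the others, the share over all tested genes is not given. No agreement is therefore read from them.

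Neutrophil transcripts were part of the lower genes. The 15 neutrophil markers summed to 2025 CPM in WT and 1119 in *Clec7a*-/- selected cells, and to 10913 and 4545 in the other barcodes. A UMI of any of them was in 447 of 520 WT and 643 of 944 *Clec7a*-/- cells. Of 7 with at least 100 UMIs, none was 2-fold higher and 5 were 2-fold lower. *S100a8*, an alarmin subunit that the rule limits, was at 220 and 42.9 (-2.36, -2.61 to -2.11) and *S100a9* at 366 and 112 (-1.70, -1.87 to -1.54). *Retnlg* was at 75.5 and 8.19 (-3.19, -3.78 to -2.67) and *Lcn2*, an iron-withholding protein, at 27.1 and 8.19 (-1.71, -2.36 to -1.11). *Il1r2*, a decoy receptor of IL-1 and the most abundant of the list, was at 1113 and 849 and at 770 and 770 in the others. *Slfn4*, *Acod1*, *Slpi* and *Il1a*, the other myeloid genes among the 12 lowest, were at -2.05, -2.005, -1.58 and -1.51. The neutrophil sum moved with these genes and with *Tnf*, *Ptgs2*, *Cxcl2*, *Ccl3* and *Ccr1*, and its part in their ratios was not tested.

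B cell transcripts were part of the higher genes. The 13 B and plasma cell markers summed to 77.5 CPM in WT and 265 in *Clec7a*-/- selected cells, in 52 and 186 cells, and to 808 and 1772 in the other barcodes. *Igkc*, the light chain constant region and the most abundant, had 70 and 520 UMIs (2.14, 1.79 to 2.53), *Ighm* 21 and 173 (2.27, 1.64 to 3.03) and *Cd79a* 23 and 112 (1.51, 0.88 to 2.25). Of 4 with at least 100 UMIs these 3 were 2-fold higher. The sign did not hold in every selection of cells, since *Ighm* was at -0.16 with the score taken from *Fscn1* and *Ccl22* alone and at -1.46 at a score of 50 and over, and *Cd79a* at -0.54 among barcodes with at least 2000 UMIs. *Igkc* lay at the low end of the score in the *Clec7a*-/- cells, at 618 CPM from 5 to under 10 and 29.6 at 50 and over, where the WT cells had 26.7. The B cell sum moved with these genes, and its part in other ratios was not tested.

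Macrophage markers summed to 543 CPM in WT and 478 in *Clec7a*-/- selected cells against 9684 and 12448 in the others, led by *Csf1r*, and monocyte markers to 927 and 651 against 4130 and 2954, led by *Cd14*. The monocyte sum was lower in the *Clec7a*-/- cells (-0.51, -0.59 to -0.43), as the neutrophil sum was, and its part in other ratios was not tested. T cell markers summed to 106 and 87.5, led by *Tcf7*, with *Cd3d* and *Cd3e* at 0 by the rule. Innate lymphoid markers summed to 503 and 474 against 268 and 359 in the others, led by *Kit*, with *Ncr1*, *Il22* and *Il17a* among those at 0, which allows up to 1.21 and 0.723 CPM. Mast cell and basophil markers summed to 304 and 272, also led by *Kit*, with *Tpsb2* and *Fcer1a* at 0, and 1 of 2 with at least 100 UMIs, *Hdc*, was 2-fold lower. Epithelial markers summed to 33.1 and 36.9, led by *Epcam*, with *Phgr1*, *Fabp2* and *Muc2* at 0, and plasmacytoid DC markers to 160 and 176, led by *Tcf4*.

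**Figure D5:**
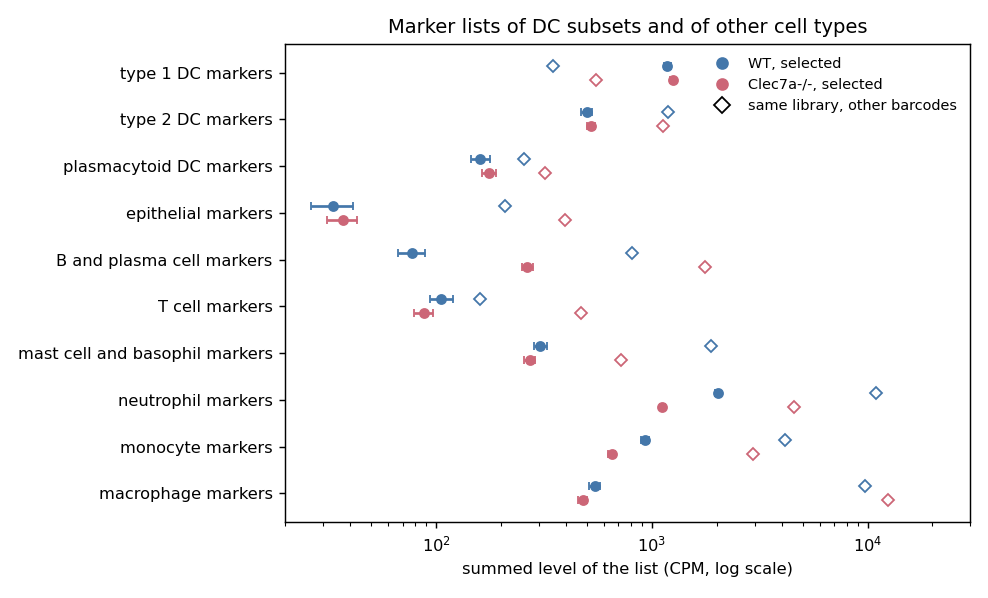
Summed CPM (log x axis) of 10 marker lists in the selected cells (filled, exact 95% Poisson intervals) and in the other kept barcodes of the same library (open), WT in blue and *Clec7a*-/- in red. Neutrophil markers stand at 2025 and 1119 and B and plasma cell markers at 77.5 and 265 in the selected cells of the WT and *Clec7a*-/- libraries, and of the 10 plotted lists all but the type 1 one are lower in the selected than in the other cells.

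The remaining lists held few genes past 2-fold. Of 14 pattern recognition receptors and C-type lectins, none was higher and 1, *Clec9a*, lower (median log2 ratio -0.36), and of 6 endocytosis and Fc receptor genes, none was higher and 1, *Fcgr2b*, lower (median -0.61). Among 10 interferon response genes 1, *Cxcl10*, was higher (median 0.10). None of 20 cytoskeleton and adhesion genes, 13 survival and death genes, 19 immediate-early and stress genes and 17 glycolysis and hypoxia genes was 2-fold apart, with medians of -0.10, -0.12, 0.05 and -0.02. *Nr4a3*, an immediate-early factor tied to DC migration and the most abundant of its list, followed the score from 683 (WT) and 580 (*Clec7a*-/-) CPM in the lowest band to 2163 and 2180 in the highest.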

How the data were processed

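For 2 libraries the authors deposited raw UMI counts, 1 whole number for each gene in each barcode. The submitters' processing notes name Cell Ranger 2.1.1 and mm10. A label names 10x Genomics, but the protocol and methods describe a SeekOne MM kit. All 32285 genes entered the totals. Positions came from GENCODE M21 (GRCm38), which holds 32235 of the identifiers. *Clec7a* and some other genes are not reported here.

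The members, gene lists and comparisons were chosen with earlier results of these data known. Counts of the selected barcodes were summed per library and expressed as UMIs per 1000000 UMIs (CPM). Log2 ratios used a pseudocount of 0.5 UMI, and at least 100 UMIs over both libraries were required. A gene called apart was at least 2-fold higher or lower. Intervals were Clopper-Pearson, exact Poisson or exact conditional binomial, at 95%. Where no UMI was found, 3 UMIs set the upper limit. Shares of cells with a UMI are given without thinning or, where stated, after thinning to 1000 UMIs (seed 1), and the marker strata were not thinned. Genes named were the rule genes and *Il12b*, the 25 with the highest mean ratio over the other kept barcodes, the 12 highest and the 12 lowest between libraries whose interval left out 0, and members of 31 lists with at least 20 UMIs. Scrublet (scanpy 1.11.5) called 0 of 3467 and 1 of 3080 barcodes, so it was taken not to have worked and doublets were kept. In simulated data for this comparison, 95.5% of 200 changed genes among 5764 came within 0.5 of the true log2 ratio.

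Alternatives were other limits on genes, mitochondrial UMIs, score, depth and lymphocyte genes, Scrublet calls removed, means over cells, TMM factors (edgeR 4.0.16, R 4.3.3), a pseudocount of 5 UMIs and other minimum UMIs. Python 3.11.15, numpy 2.4.6, scipy 1.17.1, pandas 2.3.3 and matplotlib 3.10.9 were used.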

Additional observations from a re-analysis of the deposited data

Results flagged for a closer look

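Barcodes above 10% mitochondrial UMIs entered no comparison, yet some met all the other limits of the selection, a signal in data that the results above do not use. In the WT library these were 57 of 266 such barcodes (21.4%, 16.7 to 26.9), and in the *Clec7a*-/- library 121 of 344 (35.2%, 30.1 to 40.5). They held *Fscn1* at 639 and 1045 CPM (UMIs per 1000000 UMIs), *Ccl22* at 2316 and 3155, *Ccr7* at 3292 and 3003 and *Il12b* at 177 and 163, and 24 and 58 of them scored 50 or more. Their median depth was 1423 and 1942 UMIs.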

How the results depend on the processing

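The log2 ratio of the shares of selected cells was 1.08 and lay between 0.9345 (without cells holding lymphocyte UMIs) and 1.391 under every alternative run. It was 1.391 among barcodes with at least 2000 UMIs and 1.268 at a score of 50 or more, which was added after seeing the data. The 26 genes at least 2-fold higher became 16 with the score from *Fscn1* and *Ccl22* alone, 12 without cells holding lymphocyte UMIs, 10 at a score of 50 or more, 50 with means over cells, 151 with at least 30 UMIs and 7 with at least 300. The 48 lower became 25 at no more than 5% mitochondrial UMIs, 21 with *Fscn1* and *Ccl22* alone, 21 with stricter C1q and S100 limits, 25 at a score of 50 or more, 116 with at least 30 UMIs and 15 with at least 300. Ratios that changed sign were *Ighm* (-0.16 with *Fscn1* and *Ccl22* alone, -1.46 at 50 or more), *Clec4n* (0.13 with *Fscn1* and *Ccl22* alone) and *Cd79a* (-0.54 with at least 2000 UMIs). The cause of these was not tested. Of 1193 values for single genes and sums (80 results), 1046 stayed within their counting interval and 143 moved. TMM scaling shifted all ratios by -0.03. No paired analysis was possible because each genotype has 1 library.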
